A study of Mus musculus with 9 samples.

Results

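The 8 genes described here encode membrane pumps that export drugs and other compounds, doxorubicin among them for some, and enzymes that reduce carbonyl groups. They are the P-glycoprotein genes Abcb1a and Abcb1b, Abcg2, the multidrug resistance-associated protein genes Abcc1, Abcc4 and Abcc5, and the carbonyl reductase genes Cbr1 and Cbr3. They were chosen by gene symbol for these known functions, and all 8 were found among the 24394 genes of the count table and were among the 15296 genes abundant enough to test. Polyadenylated RNA was measured in postmortem hippocampus of young C57BL6/J mice, an inbred strain, in 9 libraries of 3 groups. The doxorubicin plus MitoQ group (3 libraries) was injected with doxorubicin and given MitoQ, an antioxidant quinone carried into mitochondria by its positive charge, as a supplement. The doxorubicin group (3 libraries) received the drug, an anthracycline that poisons topoisomerase II, without MitoQ. The sham group (3 libraries) received saline. The labels give no doses, intervals, sex or exact age, and they do not say whether each library came from its own mouse, so p-values measure the spread between these libraries, which may be technical.

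ATP-binding cassette transporters use ATP hydrolysis to push drugs and their conjugates out of cells. In brain capillaries P-glycoprotein and the product of Abcg2 sit on the blood-facing membrane of endothelial cells and return many cytotoxic drugs, doxorubicin among them for P-glycoprotein, to the blood. Carbonyl reductases are cytosolic NADPH-dependent enzymes, and human CBR1 and CBR3 convert the side-chain ketone of doxorubicin to an alcohol, doxorubicinol.

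Both P-glycoprotein genes and both carbonyl reductase genes are neighbouring copies, and the shared sequence bears on how their reads could be told apart. Abcb1a (GRCm38 chr5:8660077-8748575, plus strand) and Abcb1b (chr5:8798147-8866315, plus strand) lie 49571 bases apart with no protein-coding gene between them in GENCODE M21. Their coding sequences, 3828 bases each, were identical at 88.0% of aligned positions, and the longest run without a difference was 338 bases. Of all 75-base windows of the Abcb1a transcript, 10.6% occurred unchanged in that of Abcb1b. The share was 15.5% for windows of 50 bases and 7.5% for 100 bases. Of the Abcb1b transcript's windows of 50, 75 and 100 bases, 18%, 12.4% and 8.7% occurred in that of Abcb1a. Cbr1 (chr16:93605853-93610505, plus strand) and Cbr3 (chr16:93683215-93690990, plus strand) are 72709 bases apart, with 1 protein-coding gene, Gm5678, between them. Their coding sequences of 831 bases were identical at 77.1% of positions, and 0% of 75-base windows were shared. Reads from shared stretches could not be assigned to 1 of the 2 P-glycoprotein genes with certainty, so the split between them is uncertain to that extent. The strand setting of the counting is not given either, and an annotated transcript on the opposite strand covers 553 exonic bases of Abcb1a (Gm42686) and 143 of Abcb1b (Gm5106). The first 100 bases of the longest shared P-glycoprotein run, at positions 1357 to 1456 of the Abcb1a coding sequence and 1366 to 1465 of that of Abcb1b (counted from the A of the start codon, GENCODE M21 transcripts), and the 60-base windows with the most differences, in capitals, show both extremes.
Abcb1a and Abcb1b shared: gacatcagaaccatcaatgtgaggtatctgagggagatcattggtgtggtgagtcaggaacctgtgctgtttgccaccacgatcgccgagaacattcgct
Abcb1a positions 1913 to 1972: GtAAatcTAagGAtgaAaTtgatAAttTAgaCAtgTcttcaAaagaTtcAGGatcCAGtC
Abcb1b positions 1922 to 1981: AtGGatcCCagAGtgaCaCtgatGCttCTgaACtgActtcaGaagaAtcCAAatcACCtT
Cbr1 positions 409 to 468: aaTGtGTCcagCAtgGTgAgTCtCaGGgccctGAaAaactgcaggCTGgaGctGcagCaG
Cbr3 positions 409 to 468: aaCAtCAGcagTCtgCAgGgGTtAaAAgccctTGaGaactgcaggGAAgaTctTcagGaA
Each of these window pairs held 25 differences in 60 bases.

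Libraries held 32.4 to 41.2 M (mega) counts with doxorubicin plus MitoQ, 25.5 to 28.1 M with doxorubicin and 24.7 to 35 M in sham, and 3 counts corresponded to 0.072 to 0.12 CPM (counts scaled to a common library size after TMM normalisation, per 1e6). The least abundant of the 8 genes, Abcb1b, had 95 to 153 counts per library. Hippocampal markers were present in every group: Prox1, the dentate granule cell transcription factor, stood at 84.6 ± 10.2, 83.2 ± 2.8 and 76.9 ± 5.41 CPM (doxorubicin plus MitoQ, doxorubicin and sham; SD, n = 3). Zbtb20 stood at 25.5 ± 4.04, 23.8 ± 7.92 and 18.7 ± 4.39 CPM in the same order. Choroid plexus was unevenly present. The summed level of 18 of its markers, none of them at 0, was 2154 to 7418 CPM with doxorubicin plus MitoQ, 291 to 5916 CPM with doxorubicin and 283 to 7274 CPM in sham. The ribosomal RNA precursor Rn45s, which polyA selection should remove, was at 2042 to 11500 CPM, 656 to 887 CPM and 1593 to 2167 CPM in the same order.

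None of the 8 genes passed the threshold of an adjusted p under 0.05 in any comparison, and the largest difference between group means was 1.24-fold. Per length the carbonyl reductase gene Cbr1 had the highest level and Abcb1b the lowest. Over the 9 libraries Cbr1 averaged 21.8 ± 0.609 CPM per kb of merged exons (SD, n = 9). Abcc5 followed at 13.4 ± 0.98, Cbr3 at 7.1 ± 0.536 and Abcb1a at 4.34 ± 0.517 CPM per kb. These 4 did not overlap their neighbours in the order. Abcc4 at 2.36 ± 0.327, Abcc1 at 1.85 ± 0.158 and Abcg2 at 1.68 ± 0.134 CPM per kb overlapped their neighbours, although Abcc4 exceeded Abcc1 in 9 of 9 libraries and Abcc1 exceeded Abcg2 in 7. Abcb1b lay apart at 0.52 ± 0.078 CPM per kb. Lengths of merged exons include retained introns. With the longest transcript of each gene, Cbr1 and Abcc5 overlapped: Cbr1 averaged 25.9 ± 0.726 and Abcc5 24.6 ± 1.8 CPM per kb, and Abcc5 exceeded Cbr1 in doxorubicin plus MitoQ replicate 1 (25.5 against 24.8) and in doxorubicin replicate 2 (27.4 against 26.4). With the longest transcript Abcc1 at 4.11 ± 0.351 also moved above Abcc4 at 2.64 ± 0.365 CPM per kb, and overlapped Abcb1a at 4.76 ± 0.567. These values for Abcc1, Abcc4 and Abcb1a were the same with the protein-coding transcript that has the longest coding sequence. With that length, which was chosen after seeing the data, Cbr1 was at 44.9 ± 1.26. The rest of the order of means stayed as given.

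**Figure D1:**
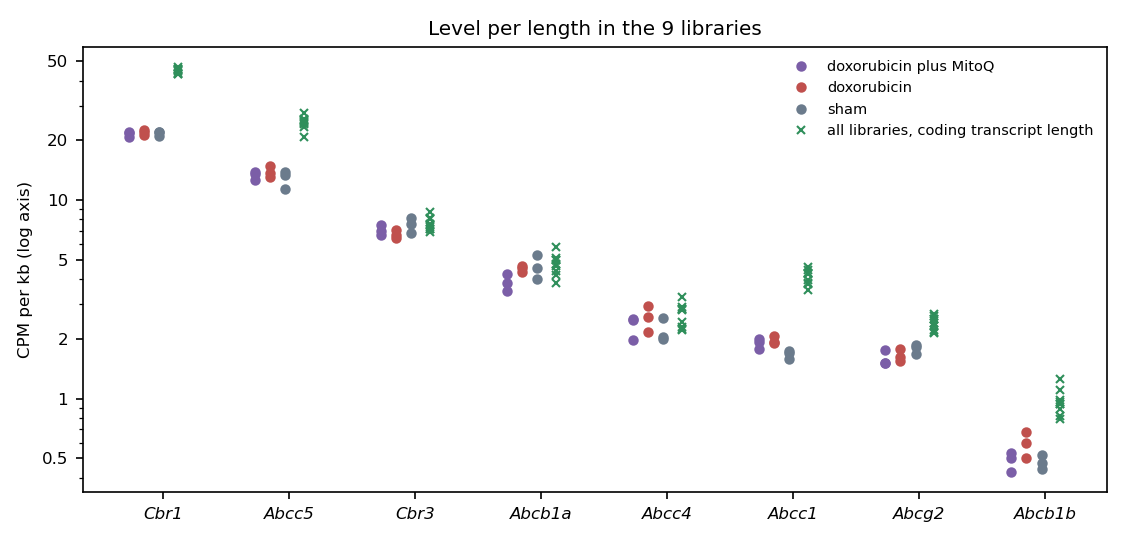
CPM per kb on a log axis for each gene in the 9 libraries. Circles use merged exon length, coloured by group (doxorubicin plus MitoQ, doxorubicin, sham from left to right), and crosses use the coding transcript. Cbr1 is highest and Abcb1b lowest with either length, and Abcc1 shifts most, to 4.11 against 1.85 CPM per kb.

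Cbr1 also varied least between libraries. Its coefficient of variation over all 9 libraries was 2.8%, against 7.32% to 15% for the other 7 genes, with Abcb1b at 15% and Abcc4 at 13.8% the most variable. Cbr1 had 1369 to 2314 counts per library and Abcb1b 95 to 153. Counting error, which is relatively larger at low counts, enters these coefficients and was not separated.

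The first comparison asked which of these genes differed after doxorubicin. Of the 8 genes, 0 were called by edgeR's quasi-likelihood test after Benjamini-Hochberg adjustment, and the same held for 0 of all 15296 genes (0%). DESeq2 and limma-voom called 0 of the 8 as well. At an unadjusted p under 0.05 there was 1 of the 8, Abcc1, where 8.83% of all genes reached it. The groups did not overlap for 1 of the 8, again Abcc1, where this held for 13% of all genes. A share of 1 in 8 is near both backgrounds. The median log2 fold change was 0.068 over the 8 genes and 0.0039 over all genes, with 5 of 8 above 0 and 51.1% of all genes above 0.

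Abcc1 (chr16:14361558-14475737, plus strand) encodes MRP1, which exports glutathione conjugates and, in its human form, anthracyclines. It stood at 31.3, 28.8 and 29.2 CPM in doxorubicin libraries, against 25.6, 26.1 and 23.9 CPM in sham libraries. Every doxorubicin library was above every sham library. The log2 fold change was 0.24 (SE 0.072), or 1.18-fold with a 95% interval of 1.06 to 1.32, with an edgeR adjusted p of 0.485 (unadjusted p = 0.00742). Leaving out 1 library in turn gave log2 fold changes of 0.19 to 0.26. With doxorubicin plus MitoQ, Abcc1 was at 29.1, 26.9 and 30.2 CPM, again with every library above every sham library. Against sham that was a log2 fold change of 0.19 (SE 0.071; edgeR adjusted p = 1, unadjusted p = 0.0242). Both comparisons use the same sham libraries and are not independent. With the choroid plexus marker level as a covariate the 2 log2 fold changes were 0.22 and 0.13. Hippocampal neuron markers were higher in the same comparisons, in 13 of 14 members after doxorubicin (median log2 fold change 0.16) and in 13 of 14 with doxorubicin plus MitoQ (0.14), and 0 of them passed the adjusted threshold. Their summed level was 3313 to 3794 CPM with doxorubicin plus MitoQ, 3598 to 3937 CPM with doxorubicin and 3049 to 3552 CPM in sham, with none at 0. Of 7 tested nuclear-retained RNAs, taken as a measure of RNA quality, 6 had a log2 fold change above 0 after doxorubicin (median 0.23) and 4 with doxorubicin plus MitoQ against sham (0.053), and 0 passed the adjusted threshold. The summed level of all 8 listed RNAs, 7 of them tested, was 3725 to 4341 CPM with doxorubicin plus MitoQ, 4215 to 4840 CPM with doxorubicin and 2941 to 4758 CPM in sham. Among them Malat1 had a fold of 1.34 after doxorubicin and 1.6 with doxorubicin plus MitoQ, both against sham (edgeR adjusted p = 0.569 and 1). The part of either list in the Abcc1 values was not tested.

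The P-glycoprotein genes differed from each other in level. After doxorubicin neither passed the adjusted threshold, and the 95% intervals of their folds overlapped. Abcb1a, the main form in mouse brain capillaries, was at 25.6, 23.7 and 24.9 CPM in doxorubicin libraries and 25.1, 22.1 and 28.9 CPM in sham libraries. The sham libraries spanned the doxorubicin libraries, and the fold was 0.977 with a 95% interval of 0.831 to 1.15 (edgeR adjusted p = 0.954). Abcb1b, the copy that is the main form in mouse adrenal gland, was at 4.04, 4.76 and 5.43 CPM in doxorubicin libraries and 4.15, 3.52 and 3.8 CPM in sham libraries. Of the doxorubicin libraries, replicates 2 and 3 exceeded every sham library and replicate 1 did not. The fold was 1.24 with a 95% interval of 0.982 to 1.57 (edgeR adjusted p = 0.569), and the log2 fold change of 0.31 was 0.20 without doxorubicin replicate 3.

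Abcg2 (chr6:58584523-58695676, plus strand) encodes the breast cancer resistance protein, a pump of capillary endothelium that works as a dimer. It stood at 12.7, 13.3 and 14.5 CPM in doxorubicin libraries and 13.7, 14.9 and 15.2 CPM in sham libraries, and the groups overlapped. The fold was 0.924 with a 95% interval of 0.795 to 1.08 (edgeR adjusted p = 0.751). Abcc5 (chr16:20331303-20426394, minus strand), which exports cyclic nucleotides and nucleotide analogues, was at 140, 159 and 146 CPM with doxorubicin and 143, 121 and 148 CPM in sham. The lowest of the 9 values was that of sham replicate 2, and without it the log2 fold change of 0.12 was 0.03.

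Abcc4 (chr14:118482692-118706219, minus strand) exports cyclic nucleotides and prostaglandins and is found both in brain capillaries and in choroid plexus epithelium. It was at 18.7, 13.9 and 16.5 CPM in doxorubicin libraries and 13.1, 16.2 and 12.8 CPM in sham libraries. Its groups overlapped (log2 fold change 0.22, SE 0.14, edgeR adjusted p = 0.655), and the choroid plexus marker sum was 5916, 291 and 3034 CPM in the same doxorubicin libraries and 312, 7274 and 283 CPM in the same sham libraries. In each of these 2 groups the libraries with marker sums of 283 to 312 CPM had the lowest Abcc4.

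Carbonyl reductase levels lay close together. Cbr1 was at 54.3, 56.5 and 57.9 CPM with doxorubicin and 53.6, 56.6 and 56.2 CPM in sham. The fold was 1.01, and its 95% interval of 0.934 to 1.1 was the narrowest of the 8 (edgeR adjusted p = 0.944). Cbr3 was at 8.08, 8.37 and 8.89 CPM with doxorubicin and 8.61, 9.5 and 10.2 CPM in sham, and the groups overlapped. Its fold was 0.895 with a 95% interval of 0.763 to 1.05 (edgeR adjusted p = 0.657).

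**Figure D2:**
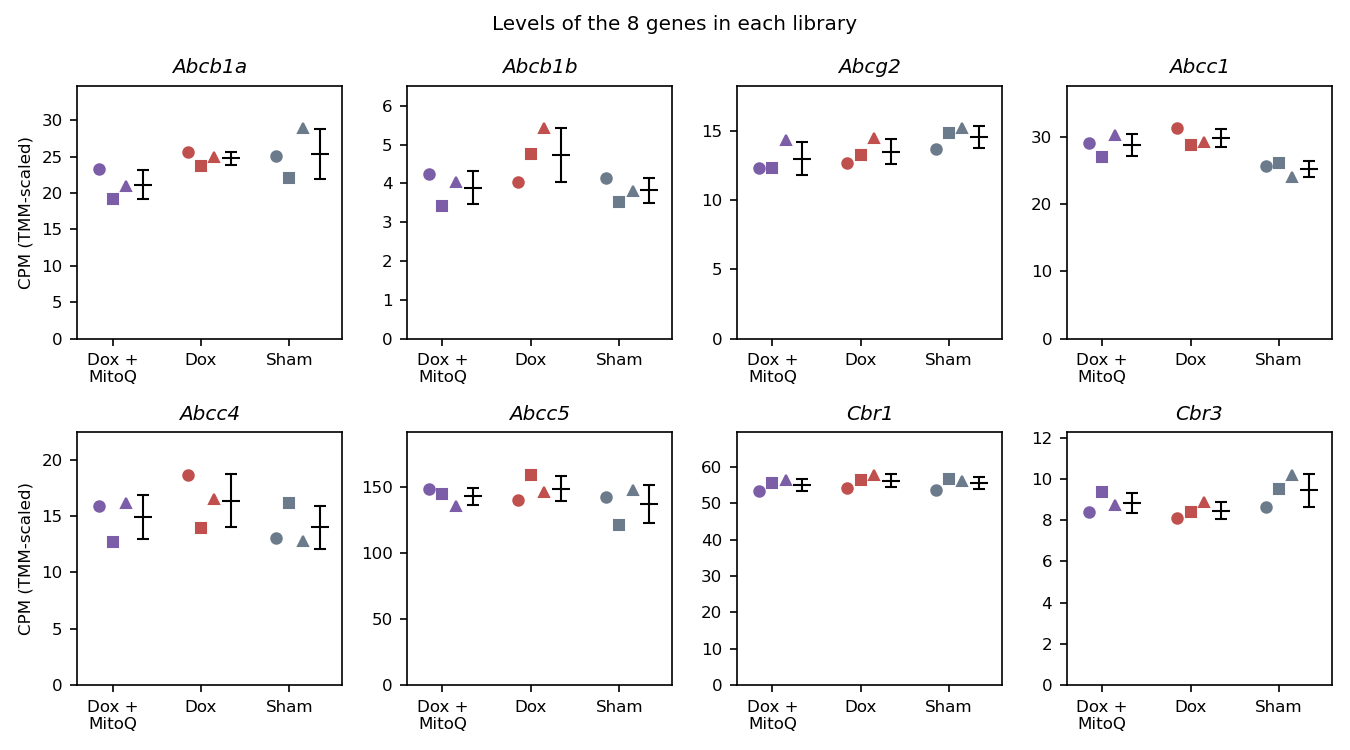
TMM-scaled CPM of the 8 genes by group (doxorubicin plus MitoQ, doxorubicin, sham). Circles, squares and triangles are replicates 1, 2 and 3, and the bar is the mean with its SD (n = 3). Abcc1 is the gene whose 6 doxorubicin-injected libraries, 26.9 to 31.3 CPM, all lie above sham, at 23.9 to 26.1 CPM. The share of all genes with such a joint order was not computed. Taken separately against the same sham libraries, 13% (doxorubicin) and 9.11% (doxorubicin plus MitoQ) of all genes did not overlap, in either direction.

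The next comparison set doxorubicin-injected mice with MitoQ against those without it. Abcb1a stood lower with MitoQ, at 23.2, 19.2 and 21 CPM against 25.6, 23.7 and 24.9 CPM with doxorubicin alone. The groups did not overlap, but the log2 fold change of -0.23 (SE 0.11) missed the threshold (edgeR adjusted p = 0.968, unadjusted p = 0.0544), and the fold of 0.854 had a 95% interval of 0.727 to 1.004. It was the only 1 of the 8 genes whose groups did not overlap, where 9.71% of all genes did not. Of the 8 genes 0 were called, as were 0 of all genes (0%); at an unadjusted p under 0.05 there were 0 of 8 by edgeR and DESeq2 and 1 by limma-voom, against 3.3% of all genes by edgeR.

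Abcb1b was at 4.24, 3.41 and 4.03 CPM with MitoQ added and 4.04, 4.76 and 5.43 CPM with doxorubicin alone. These groups overlapped, with a fold of 0.819 and a 95% interval of 0.65 to 1.03 (edgeR adjusted p = 0.968). Abcg2 was at 12.3, 12.3 and 14.4 CPM with MitoQ, Abcc5 at 148, 144 and 136 CPM and Abcc4 at 15.9, 12.7 and 16.2 CPM. Each of these overlapped its doxorubicin libraries, with folds of 0.965, 0.96 and 0.91. Abcc1 overlapped too, with a fold of 0.966 and a 95% interval of 0.866 to 1.08 (edgeR adjusted p = 0.968). Cbr1, at 53.2, 55.5 and 56.3 CPM with MitoQ, had a fold of 0.979 (95% interval 0.902 to 1.06) and Cbr3, at 8.38, 9.36 and 8.73 CPM, a fold of 1.05 (0.892 to 1.22). Fold changes of 7 of the 8 genes were below 0 on the log2 scale, with a median of -0.06 against -0.0003 over all genes. Values above 0 were found for 1 of the 8 and for 49.9% of all genes. All 8 comparisons use the same doxorubicin libraries as the first one.

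Against sham, the doxorubicin plus MitoQ libraries had 2 of the 8 genes at an unadjusted p under 0.05, Abcc1 (higher, as above) and Abcb1a (lower), where 2.95% of all genes reached it, and 0 of the 8 were called by edgeR, DESeq2 or limma-voom (0% of all genes by edgeR). Abcb1a stood at 21.2 ± 2.01 CPM with doxorubicin plus MitoQ and 25.4 ± 3.42 CPM in sham (SD, n = 3). The groups overlapped, since sham replicate 2, at 22.1 CPM, lay below MitoQ replicate 1. The fold was 0.835 with a 95% interval of 0.71 to 0.981 (edgeR adjusted p = 1, unadjusted p = 0.0313). Leaving out sham replicate 3 brought the count of 2, taken over all 8 genes, to 0. It was 1 without sham replicate 1, without any 1 of the 3 doxorubicin plus MitoQ libraries or with the choroid plexus covariate. The 1 gene with the covariate was Abcc5 (edgeR unadjusted p = 0.0162), and neither Abcc1 nor Abcb1a was under 0.05 there. Without sham replicate 3 the log2 fold change of Abcb1a was -0.16, against -0.26 with it (edgeR unadjusted p = 0.133). The other 6 genes had folds of 0.892 to 1.06, and 4 of the 8 had a log2 fold change above 0, as did 52.2% of all genes. Abcc1 was the 1 gene of the 8 whose groups did not overlap, where 9.11% of all genes did not. In the test for any difference among the 3 groups, 0 of the 8 were called (0% of all genes) and 1, Abcc1, had an unadjusted p under 0.05 (edgeR unadjusted p = 0.0181, adjusted p = 0.943), against 5.11% of all genes.

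**Figure D3:**
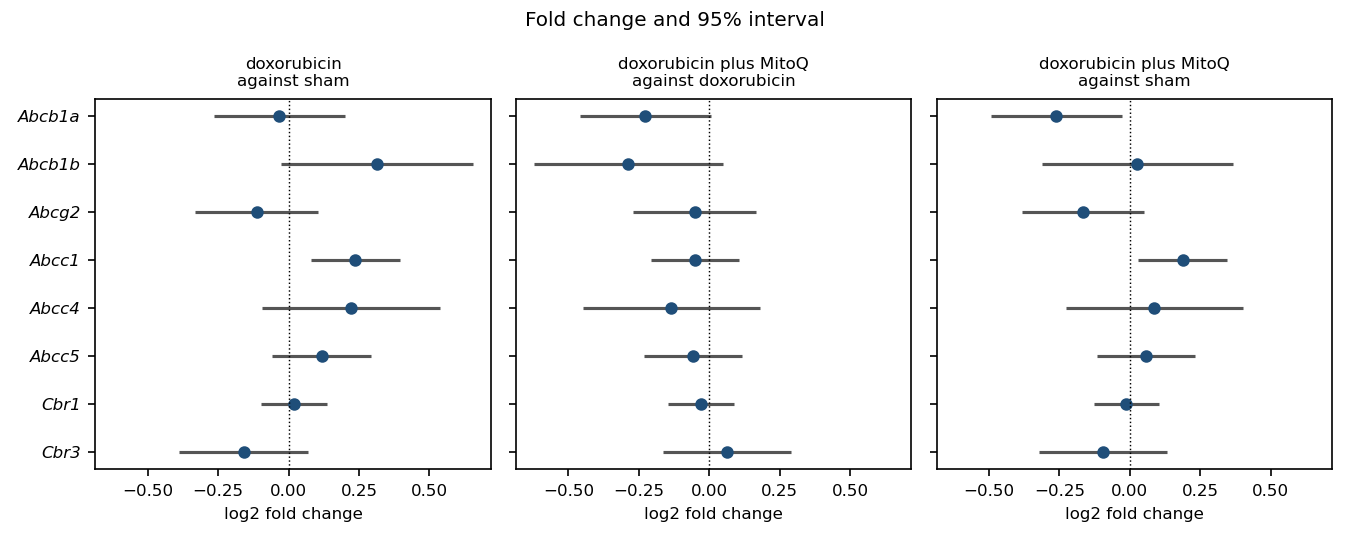
Log2 fold change (points) and 95% interval (lines) of the 8 genes in the 3 comparisons, from the edgeR model over 9 libraries. Most intervals include 0. Those of Abcc1 lie above 0 against sham in both injected groups, at 0.24 and 0.19, and that of Abcb1a lies below 0 for doxorubicin plus MitoQ against sham, at -0.26, and the adjusted p missed the threshold for all.

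Markers of brain endothelium, the cell type that carries P-glycoprotein and Abcg2 at the blood-brain barrier, stood lower in the same comparisons. Of 23 markers, all tested and none at 0, 20 were lower after doxorubicin than in sham (median log2 fold change -0.11), 16 were lower with MitoQ added than with doxorubicin alone (-0.03), and 21 were lower with doxorubicin plus MitoQ than in sham (-0.18). None of them passed the adjusted threshold. Pericyte and smooth muscle markers were lower in 8, 7 and 12 of 12 in these comparisons. Lower levels were not particular to vessels. After doxorubicin 16 of 17 microglia, 18 of 18 fibroblast and meningeal, 10 of 14 astrocyte and 11 of 16 oligodendrocyte markers were lower than in sham. Hippocampal neuron markers were higher in 13 of 14 and choroid plexus markers in 15 of 18. None of these markers passed the adjusted threshold. The endothelial markers' summed level was 499 to 598 CPM with doxorubicin plus MitoQ, 549 to 627 CPM with doxorubicin and 585 to 670 CPM in sham. Cldn5, the tight junction claudin, was at 26.2 ± 5.7, 25.9 ± 6.44 and 30.1 ± 7.4 CPM (doxorubicin plus MitoQ, doxorubicin and sham; SD, n = 3) and the adhesion molecule Pecam1 at 17.8 ± 2.01, 17.9 ± 3.62 and 19.7 ± 1.29 CPM. In whole hippocampus, fewer endothelial cells and less RNA per cell cannot be told apart.

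Across the 9 libraries Abcb1a was correlated with the endothelial marker sum (Pearson r = 0.84, exact permutation p = 0.0062, adjusted p = 0.0496 over 8 relations; Spearman rho = 0.68, exact permutation p = 0.0503, adjusted p = 0.403). The permutations ignored group, so differences between groups and between libraries within groups both enter these values. Group means shared their order: Abcb1a averaged 25.4, 24.8 and 21.2 CPM and the marker sum 614, 576 and 550 CPM (sham, doxorubicin, doxorubicin plus MitoQ). The 2 libraries farthest from the median marker level were doxorubicin plus MitoQ replicate 2 (499 CPM) and sham replicate 3 (670 CPM). Without them r was 0.39, when the other 7 genes had r of -0.73 (Cbr1) to 0.45 (Abcc4). Dropping the lowest and highest marker sums narrows their range, which by itself can lower r. The relation was thus not shown to hold without these libraries, nor to rest on them alone. For Abcg2 r was 0.34 (exact permutation p = 0.369, adjusted p = 0.839; rho = 0.15, exact permutation p = 0.708, adjusted p = 0.982), and it was -0.57 without those 2 libraries. Abcb1b had an r of -0.13 (exact permutation p = 0.734, adjusted p = 0.839; rho = -0.07, exact permutation p = 0.88, adjusted p = 0.982). The part of endothelial content in the Abcb1a values was not tested.

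Within groups Abcc4 tended to be higher where choroid plexus markers were higher, short of the adjusted threshold. Across groups the lowest Abcc4, at 12.7 CPM in doxorubicin plus MitoQ replicate 2, came with a marker sum of 2154 CPM. In sham replicate 3, Abcc4 was 12.8 CPM with a marker sum of 283 CPM. In a model with the 3 group means, the slope of Abcc4 on the mean log2 level of the choroid plexus markers was 0.088 (SE 0.022) log2 units per log2 unit, with an edgeR adjusted p of 0.0827 that missed the threshold (unadjusted p = 0.00188). For Abcc5 the slope was -0.05 (SE 0.013, edgeR adjusted p = 0.11, unadjusted p = 0.00286), and for the other 6 genes the adjusted p was at least 0.829. Of the 8 genes 0 were called, where 279 of all genes were (1.82%). That background includes the 18 markers that make up the level, and 261 of the called genes were not among them. With this level as a covariate, the log2 fold change of Abcc4 was 0.15 for doxorubicin against sham and -0.10 for doxorubicin plus MitoQ against sham, where it was 0.22 and 0.09 without it. For MitoQ added against doxorubicin alone it was -0.25 with the covariate (edgeR unadjusted p = 0.0229, adjusted p = 0.993) and -0.14 without it. Abcc5 had log2 fold changes of 0.16 for doxorubicin against sham (unadjusted p = 0.0127, edgeR adjusted p = 0.391) and 0.17 for doxorubicin plus MitoQ against sham (unadjusted p = 0.0162, edgeR adjusted p = 0.999) with the covariate, where it had 0.12 and 0.059 without it.

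**Figure D4:**
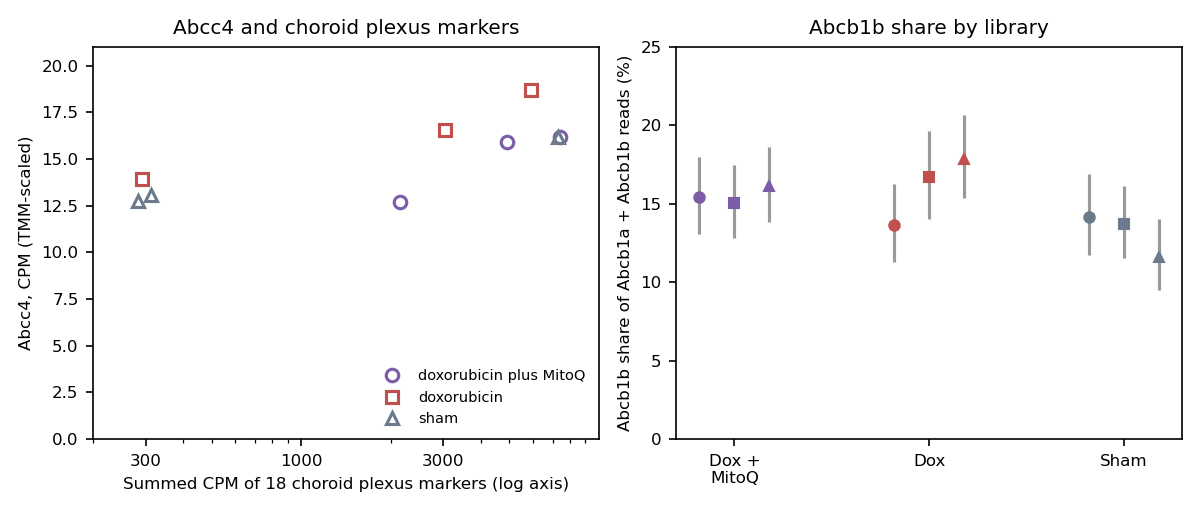
Left, Abcc4 in CPM against the summed CPM of 18 choroid plexus markers (log axis) in the 9 libraries, with circles for doxorubicin plus MitoQ, squares for doxorubicin and triangles for sham. The 3 libraries with marker sums of 283 to 312 CPM have 12.8 to 13.9 CPM of Abcc4, and the others 12.7 to 18.7 CPM. Right, the share of Abcb1b among the reads of both P-glycoprotein genes by library, with replicates 1, 2 and 3 as circles, squares and triangles and exact binomial 95% intervals as lines.

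Within the P-glycoprotein pair, Abcb1b took 15.5 ± 0.531% of the reads with doxorubicin plus MitoQ, 16.1 ± 2.2% with doxorubicin and 13.2 ± 1.38% in sham (SD, n = 3). The range was 15.1% to 16.1%, 13.6% to 17.9% and 11.6% to 14.2% in the same order, so MitoQ libraries lay above every sham library and doxorubicin libraries overlapped sham. Mean Abcb1b was 3.89 CPM with doxorubicin plus MitoQ and 3.82 CPM in sham, where mean Abcb1a was 21.2 and 25.4 CPM. The higher share with MitoQ thus went with lower Abcb1a and not with higher Abcb1b. Exact permutation tests, which cannot give a p under 0.1 for 3 against 3, gave 0.1 for doxorubicin plus MitoQ against sham and 0.3 for doxorubicin against sham (two-sided; adjusted p = 0.2 and 0.36 over 6 comparisons). Cbr3 took 13.8 ± 0.53%, 13.1 ± 0.228% and 14.5 ± 0.771% of the reads of the carbonyl reductase pair in the 3 groups. Here doxorubicin libraries lay below those of each other group (exact permutation p = 0.1 each, adjusted p = 0.2). Counting error alone gave single Abcb1b shares a 95% interval wider than these differences, for example 9.5% to 14% in sham replicate 3.

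The 250 bases before the RefSeq start of Abcb1b and before 1 of 2 RefSeq starts of Abcc4, that at the GENCODE gene start, are shown with matches in capitals (GRCm38.p6, 5′ to 3′ on the gene's strand). These 2 genes were taken because they had the highest coefficients of variation, which include counting error. Both strands were searched for the CCAAT box, which 33.8% of 32851 such windows hold. The GC box, with the letters GGGCGG, was in 32.7% of windows. The TATA box, searched as TATAAA, was in 12.4%. The E-box, searched as CACGTG, was in 6.02%. The core of the antioxidant response element, searched as TGACNNNGC, was in 10.2%.
Abcb1b, chr5:8797897-8798146, plus strand: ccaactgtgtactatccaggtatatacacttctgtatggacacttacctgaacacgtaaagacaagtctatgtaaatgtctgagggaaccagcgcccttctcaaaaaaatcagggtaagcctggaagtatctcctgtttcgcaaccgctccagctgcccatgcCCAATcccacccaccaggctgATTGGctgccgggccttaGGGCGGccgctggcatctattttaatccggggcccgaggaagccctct
Abcc4, chr14:118706220-118706469, minus strand: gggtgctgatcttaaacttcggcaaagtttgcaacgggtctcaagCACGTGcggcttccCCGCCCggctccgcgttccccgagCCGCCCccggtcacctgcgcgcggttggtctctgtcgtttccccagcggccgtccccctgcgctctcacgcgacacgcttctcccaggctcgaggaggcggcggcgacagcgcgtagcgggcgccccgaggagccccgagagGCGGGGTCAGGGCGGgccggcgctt
Abcb1b held 2 CCAAT matches and 1 GC box. The Abcc4 window shown held 3 GC boxes, 1 E-box and 1 antioxidant response element core, which directly adjoins the GC box nearest the start. The window before the other Abcc4 start, at chr14:118676932-118677181, held 1 antioxidant response element core, no GC box and no E-box. A match is a run of letters, not a measured binding site.

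Other genes of anthracycline handling gave the same kind of result. There were 6 lists. They held other drug-exporting ABC transporters, uptake transporters of organic ions, and other carbonyl and aldo-keto reductases. They also held genes of quinone reduction, including the electron donor Cyb5a, of glutathione conjugation, and regulators of pump genes. Of their 116 genes 101 were tested, and 0 were called by edgeR in any comparison. At an unadjusted p under 0.05 there were 7 genes after doxorubicin, 3 higher and 4 lower, 2 with MitoQ added against doxorubicin alone, and 3 for doxorubicin plus MitoQ against sham. These are 6.93%, 1.98% and 2.97% of the 101 genes, where 8.83%, 3.3% and 2.95% of all genes reached that p. Median log2 fold changes were -0.0039, 0.0024 and 0.028 over the 101 genes and 0.0039, -0.0003 and 0.005 over all genes in these comparisons.

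The organic anion transporter Slc22a6 (OAT1) had the smallest p of its list in each comparison. It was at 3.03 ± 0.977 CPM with doxorubicin plus MitoQ, 2.09 ± 0.615 CPM with doxorubicin and 5.36 ± 0.616 CPM in sham (SD, n = 3). The log2 fold change after doxorubicin was -1.36 (SE 0.27), which edgeR did not call (adjusted p = 0.311) and DESeq2 did (adjusted p = 0.00221). Fibroblast and meningeal markers were lower in the same comparison in 18 of 18 members (median log2 fold change -0.62), and their summed level was 347 to 787 CPM with doxorubicin and 646 to 914 CPM in sham, with none at 0. Their part in the Slc22a6 values was not tested. The transporter Abca2, an ABC protein abundant in oligodendrocytes, had the smallest p of the other ABC transporters after doxorubicin, at 412 ± 33.6 CPM with doxorubicin and 351 ± 17.5 CPM in sham (edgeR adjusted p = 0.485). The electron donor Cyb5a stood at 27.4 ± 1.31 CPM with doxorubicin and 31.3 ± 0.576 CPM in sham (edgeR adjusted p = 0.525). Gstt1, a glutathione transferase, stood at 5.24 ± 0.959 CPM with doxorubicin and 7.11 ± 1.52 CPM in sham (edgeR adjusted p = 0.519). The aldo-keto reductase Akr1e1 was at 19.6 ± 0.791 and 22 ± 1.36 CPM, and among the regulators the transcription factor Foxo1 had the smallest p, at 69.8 ± 2.3 and 65.2 ± 1.71 CPM (doxorubicin and sham; edgeR adjusted p = 0.569 and 0.631).

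With MitoQ added to doxorubicin, the smallest p of each list belonged to Abcc10, Slc22a6, Cbr2, Xdh, Gstt1 and Esr1 (edgeR adjusted p = 0.968 each). The carbonyl reductase Cbr2 was at 0.618 ± 0.183 CPM with MitoQ and 0.329 ± 0.0833 CPM with doxorubicin alone. Between doxorubicin plus MitoQ and sham they were Mvp, Slc22a6, Akr7a5, Nos3, Gstt3 and Foxo1 (edgeR adjusted p = 1 each).

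By the pattern over the 9 libraries, among 13870 other genes averaging 1 CPM or more, the gene most like Abcb1a was Cdk16 (Pearson r = 0.94 of log2 CPM), followed by Mrpl43 (0.94) and Vwa5b2 (0.92). Most like Abcb1b were Nck2, Cabp7 and Nell2 (0.97, 0.97 and 0.96), and most like Abcc1 were Prkcd, Fkbp15 and Wwc2 (0.97, 0.95 and 0.95). Abcc4 was closest to Lama5, Neurl2 and Agbl2 (0.95, 0.95 and 0.94) and Abcc5 to Nbeal2, Shisa7 and Nsun7 (0.96, 0.96 and 0.95). Abcg2 was closest to Vps28, Fancl and Proser2 (0.94, 0.92 and 0.91). For Cbr1 they were Terf2ip and Rpusd2 (0.92 and 0.92), and for Cbr3 Ncbp2, Pnck and Myh7b (0.96, 0.95 and 0.94). These values are the highest of many over 9 libraries, which share group and composition, and are a description only. No gene among the 8 appeared in another's list.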

How the data were processed

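The authors deposited raw read counts per gene symbol for 9 polyadenylated RNA libraries made with a TruSeq kit. STAR, DESeq2 and mm10 are named in the submitters' processing notes, without versions or roles; no source used here gives the counting program, strand setting or annotation. In 27 entries a date replaces the symbol (0.309% to 0.322% of counts), and these stayed out of tests and library sizes.

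Genes were kept by filterByExpr (minimum count 10), scaled by TMM and fitted in one quasi-likelihood model over all 9 libraries with edgeR 4.0.16 in R 4.3.3. Adjusted p-values are Benjamini-Hochberg over 15296 genes. Standard errors are the log2 fold change over the square root of F, and 95% intervals use the t distribution with the model's degrees of freedom. Intervals of read shares are exact binomial and cover counting error only. Gene models are GENCODE M21 (GRCm38), and promoters are from the RefSeq table (GRCm38.p6); Abcc1 had no entry there. Coding sequences were aligned with Biopython 1.88, correlations and exact tests used scipy 1.17.1, and figures matplotlib 3.10.9.

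All 8 genes and, from the other lists, the gene with the smallest p per list and comparison were named, with the 3 genes most correlated with each of the 8, of which 1 is not reported here. The 8 genes and all lists were chosen with earlier results of these data known. Alternatives were DESeq2 1.42.0, limma-voom (limma 3.58.1), DESeq2's size factors in edgeR, 2 other filters, an adjusted p under 0.1, only the groups compared, a replicate block, a choroid plexus covariate and leaving out each library. The procedure was tested on simulated data. Within groups, every pair of libraries differed by more than sampling noise (chi-square per degree of freedom 8.74 to 30.9).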

Additional observations from a re-analysis of the deposited data

How the results depend on the processing

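None of the 8 genes was called under any of 18 alternatives to the 24 fold changes, and 16 of the 24 kept their sign in all of them. The count over all genes changed. After doxorubicin DESeq2 called 44 genes, the fit without a filter 1, the threshold of 0.1 called 1 and the replicate block 2; with MitoQ added to doxorubicin DESeq2 called 5 and no filter 2; for doxorubicin plus MitoQ against sham DESeq2 called 2; for any difference DESeq2 called 36 and no filter 3. Leaving out 1 library gave 0 to 1, 0 to 3, 0 to 3 and 0 to 4 calls in these comparisons, the highest without doxorubicin plus MitoQ replicate 2. Of other genes of anthracycline handling, an addition made after seeing the data, DESeq2 called 1 after doxorubicin and 1 for any difference. The cause was not tested.

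With the choroid plexus covariate the log2 fold change turned to 0.0097 for Abcc5 (MitoQ added against doxorubicin) and to -0.10 for Abcc4 (doxorubicin plus MitoQ against sham). Leaving out 1 library turned signs for Abcb1a (-0.13 to 0.066) and Cbr1 (-0.0059 to 0.043) after doxorubicin, for Abcg2 (-0.13 to 0.0022) with MitoQ added against doxorubicin, and for Abcb1b (-0.037 to 0.11), Abcc5 (-0.030 to 0.11) and Cbr1 (-0.036 to 0.011) for doxorubicin plus MitoQ against sham. Levels per kb with the longest transcript were 25.9 for Cbr1 (44.9 with the coding transcript), 24.6 for Abcc5, 4.11 for Abcc1, 2.39 for Abcg2 and 0.964 for Abcb1b, the shorter length giving the higher value.

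Replicate numbers did not pair the libraries: deviations from group means correlated at -0.5 to 0.36 in same-numbered pairs, 1 of 9 above 0.1, and 0 of 9 libraries correlated best with their own number. The replicate block called 0 of the 8 genes and 2 genes in all after doxorubicin. Counting error and the spread between 3 libraries both enter the precision and were not separated: standard errors of log2 fold changes had a median of 0.10 over all genes. Comparing only the groups tested was not run for the 3-group test.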
